A study of Arabidopsis thaliana with 4 samples.

Results

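The transcripts described here are those of 10 nuclear genes of the Calvin cycle other than Rubisco, taken by locus from a written list, and they are 10 of the 33977 loci counted. All 10 passed the filter on low counts that left 19919 genes for testing. Each library came from 1 Arabidopsis thaliana plant. The wild type was Col-0, the common laboratory accession, with 2 plants, and another 2 plants labelled PPD3_OE overexpress PPD3 in the Col-0 background. PPD3 is a protein of the PsbP-domain family, relatives of an extrinsic subunit of photosystem II. All plants grew on peat mix at 22 °C with 16 h of light a day and were frozen at bolting, the time at which the flowering stem appears. No other allele or agent is named for either genotype. The sources used here do not name the promoter of the transgene or say whether both PPD3_OE plants belong to 1 line. One label names the tissue as the rosette and another speaks of the entire plant. In 8 of the 10 genes both PPD3_OE plants stood above both wild-type plants, as they did in 33.9% of all genes tested. None of the 10 passed a test. With edgeR this was all but fixed, since it called 1 of the 19919 genes at an adjusted p under 0.05. DESeq2 called 8.35% of all genes higher and 9.65% lower. The 2 wild-type plants lay far apart in every one of the 10. Among the ratios compared within each plant, that of CP12-2 to GAPB differed most and was 31.7% lower in PPD3_OE plants. CP12-2 itself hardly differed between the genotypes (log2 fold change 0.02), while GAPB stood higher without a call (0.58). Relative to PRK, CP12-2 was 16.5% lower. With 2 plants against 2, an exact permutation test of such a ratio cannot go below 0.33.

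The Calvin cycle fixes carbon dioxide in the chloroplast stroma. Rubisco makes 3-phosphoglycerate, phosphoglycerate kinase and NADP-dependent glyceraldehyde-3-phosphate dehydrogenase (GAPDH) reduce it to triose phosphate with ATP and NADPH, and the remaining enzymes rebuild the acceptor ribulose-1,5-bisphosphate. In the light, thioredoxins switch several of these enzymes on by reducing disulfide bonds. In the dark, the small protein CP12 holds GAPDH and phosphoribulokinase together in an inactive complex. The genes are encoded in the nucleus and are known for high expression in green leaves.

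The start regions of 4 of the genes are shown. GAPB, PRK and CP12-2 encode the partners of the CP12 complex, whose transcripts differed in their proportions between the genotypes, and HCEF1 had the most motif matches of the 10. Each runs 5′ to 3′ on the strand of the gene, from 250 bases before the annotated gene start through the 50 bases after it, in the RefSeq genome TAIR10.1. The submitters' notes name TAIR10, and the count files were joined to this assembly by locus name alone. Capitals mark matches on either strand to the G-box (CACGTG), the I-box (GATAAG), the evening element (AAAATATCT), a CCA1-binding site (AAAAATCT) or a TCP site (GGCCCA), motifs known from light-regulated, clock-regulated and growth genes.
GAPB, chr1:16127103-16127402, plus strand: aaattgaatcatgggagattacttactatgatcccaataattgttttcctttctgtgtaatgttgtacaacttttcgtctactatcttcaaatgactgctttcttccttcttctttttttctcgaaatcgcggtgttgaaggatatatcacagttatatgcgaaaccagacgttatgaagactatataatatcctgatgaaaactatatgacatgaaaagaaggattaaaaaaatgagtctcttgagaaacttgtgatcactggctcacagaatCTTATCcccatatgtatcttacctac
PRK, chr1:11531949-11532248, plus strand: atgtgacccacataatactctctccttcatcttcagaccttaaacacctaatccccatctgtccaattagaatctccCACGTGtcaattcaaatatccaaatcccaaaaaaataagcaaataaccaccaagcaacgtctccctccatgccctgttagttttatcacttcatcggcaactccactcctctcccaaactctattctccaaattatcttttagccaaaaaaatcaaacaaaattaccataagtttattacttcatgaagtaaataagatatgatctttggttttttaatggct
CP12-2, chr3:23090694-23090993, plus strand: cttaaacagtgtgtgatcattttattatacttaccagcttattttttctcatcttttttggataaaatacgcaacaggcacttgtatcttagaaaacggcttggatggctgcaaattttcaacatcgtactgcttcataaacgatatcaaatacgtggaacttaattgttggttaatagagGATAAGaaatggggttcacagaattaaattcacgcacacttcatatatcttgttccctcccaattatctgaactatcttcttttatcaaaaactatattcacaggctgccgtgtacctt
HCEF1, chr3:20016587-20016886, plus strand: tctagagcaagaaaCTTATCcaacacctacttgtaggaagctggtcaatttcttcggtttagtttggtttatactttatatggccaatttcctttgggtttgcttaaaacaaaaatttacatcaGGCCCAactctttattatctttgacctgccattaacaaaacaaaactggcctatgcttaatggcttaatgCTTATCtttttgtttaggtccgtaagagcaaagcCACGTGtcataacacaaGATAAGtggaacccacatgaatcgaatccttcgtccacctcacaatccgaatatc

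Among the 10 start regions the I-box was in 3 (GAPB, HCEF1 and CP12-2), against 14.6% of 27443 nuclear protein-coding genes with a window of the same length. The G-box was in 2 (HCEF1 and PRK), against 7.68% of all, and its first base lay at -22 and -173 from the annotated start in these. A TCP site was in 3 (HCEF1, SBPASE and TKL1), against 15.5%, and the 2 matches in SBPASE overlap each other on opposite strands. The evening element was in 1 (TKL1), against 2.82%, and the CCA1-binding site was in 0, against 7.88%. PGK1, GAPA1, GAPA2 and RPE held none of the 5 motifs in this window. A match is a run of letters and does not show a site in use. CP12-2 and GAPB each held a single I-box, at -69 in CP12-2 and within the transcribed part, at 25, in GAPB. HCEF1 held more than 1 I-box, at -236, -56 and -5. A link between these matches and the transcript levels was not tested.

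Counts assigned to genes ran from 33771093 to 40727172 per plant, and the 10 genes held 1.24% of them in wild-type plant 1, 0.820% in wild-type plant 2, 1.35% in PPD3_OE plant 1 and 1.46% in PPD3_OE plant 2. Where 2 values are given for a genotype below, they are plant 1 and plant 2 in that order. Levels are CPM, TMM-scaled counts per 1000000 counts, given plant by plant or as mean ± SD of n = 2 plants, and log2 fold changes are PPD3_OE over wild type from edgeR's quasi-likelihood fit with their SE. Each of the 10 genes had at least 11885 reads in every plant, and the counting error of a level was at most 0.917%. PPD3, taken as AT1G76450, was at 103 and 70.7 CPM in wild type and at 2836 and 3264 CPM in PPD3_OE, 35.2-fold higher. Its edgeR adjusted p was 0.0623 and its DESeq2 adjusted p was 4.42e-86. Green-leaf markers, 5 in number, summed to between 26343 and 33917 CPM in every plant, with 3 of them positive in PPD3_OE over wild type and 2 negative. Of the 5, DESeq2 called 1, the antenna gene LHCB1.3, at 16170 and 14296 CPM in wild type and 10663 and 11567 CPM in PPD3_OE (adjusted p = 0.0316). By contrast, 4 root markers summed to at most 1.38 CPM and 1 of them (EXPA7) was at 0 in all plants. EdgeR, which called 1 of all genes tested, called none of the markers of other tissues and states. DESeq2 called all 7 dividing-cell markers higher, against 8.35% of all genes. It called all 6 tested senescence markers and the 1 tested root marker lower, against 9.65%. The 7 dividing-cell markers were each higher in both PPD3_OE plants, as were 33.9% of all genes (77.9 to 96.5 CPM summed in wild type, 161 to 167 in PPD3_OE). Of 7 senescence and dark-induced markers, the 6 tested were lower in both PPD3_OE plants, as were 33% of all genes. The 7 summed to 254 and 512 CPM in wild type and 40.1 and 28.4 in PPD3_OE, and SAG12 was at 0 in 1 plant. 5 floral markers summed to 5.89 to 11.9 CPM in wild type and 12.8 to 19.7 in PPD3_OE. Their part in the values of the Calvin cycle genes was not tested, and fewer green cells and less RNA per cell cannot be told apart in such bulk samples.

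The reduction step is encoded here by PGK1, GAPA1, GAPA2 and GAPB. All 4 transcripts stood higher in both PPD3_OE plants than in both wild-type plants, as did 33.9% of all genes tested. PGK1 (AT3G12780), the chloroplast phosphoglycerate kinase that spends ATP on 3-phosphoglycerate, was at 1519 and 1075 CPM in wild type and at 1743 and 1880 CPM in PPD3_OE. Wild-type plant 1 lay closer to the PPD3_OE plants than to the other wild-type plant. The log2 fold change was 0.48 ± 0.24 (95% interval -0.17 to 1.13, edgeR adjusted p = 0.239). PGK1 had the smallest gap between the wild-type plants of the 10 genes, 0.50 on the log2 scale.

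GAPA1 (AT3G26650) and GAPA2 (AT1G12900) encode the A subunit of the photosynthetic GAPDH, and GAPB (AT1G42970) its B subunit, whose C-terminal extension resembles part of CP12. GAPA1 was at 2015 and 1315 CPM in wild type and at 2173 and 2134 CPM in PPD3_OE. The PPD3_OE mean was 1.07-fold that of wild-type plant 1 and 1.64-fold that of plant 2, and the groups did not overlap by a narrow margin. GAPA2 was at 1024 and 650 CPM in wild type and at 1253 and 1550 CPM in PPD3_OE. Of the 10 genes it had the largest log2 fold change, 0.74 ± 0.29 (95% interval -0.04 to 1.53, edgeR adjusted p = 0.164), and the lowest DESeq2 adjusted p, 0.0589. GAPA2 was also the gene in which the PPD3_OE plants lay farthest apart, plant 2 above plant 1 by 0.31 on the log2 scale. GAPB was at 1627 and 1005 CPM in wild type and at 1901 and 2025 CPM in PPD3_OE, a log2 fold change of 0.58 ± 0.29. The transcripts of GAPA1 and GAPA2 are 82.8% identical over 1391 aligned bases, and no exact stretch of 150 bases, the read length, was shared by a longest transcript of any of the 10 genes with that of another gene, which limits how far reads could be split between copies.

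**Figure D1:**
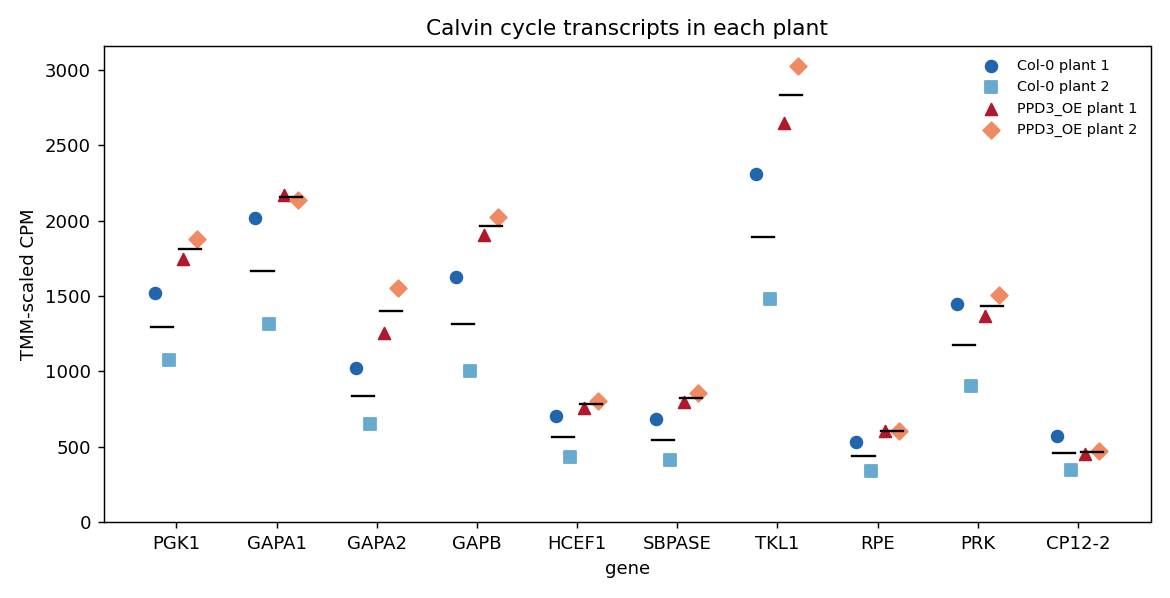
TMM-scaled CPM (linear axis from 0) of the 10 Calvin cycle transcripts in each of the 4 plants, with a black bar at the mean of the 2 plants of each genotype. Wild-type plant 2 is the lowest point for every gene, and in CP12-2 wild-type plant 1 is the highest, at 571 CPM.

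Regeneration of the acceptor is represented by 5 enzymes. In both PPD3_OE plants 4 of them stood above both wild-type plants, as did 33.9% of all genes tested, and PRK did not. HCEF1 (AT3G54050), the plastid fructose-1,6-bisphosphatase, was at 702 and 435 CPM in wild type and at 757 and 805 CPM in PPD3_OE. SBPASE (AT3G55800), the sedoheptulose-1,7-bisphosphatase known for limiting the flow of carbon through the cycle, was at 686 and 411 CPM in wild type and at 798 and 855 CPM in PPD3_OE. Both phosphatases are switched on by thioredoxin in the light. In each, wild-type plant 1 was just below the PPD3_OE plants and wild-type plant 2 far below, with log2 fold changes of 0.46 ± 0.27 for HCEF1 and 0.59 ± 0.29 for SBPASE. Of the HCEF1 exon bases, 9.44% overlap AT3G54060 on the other strand, where reads of both genes cannot be told apart.

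TKL1 (AT3G60750), a transketolase that moves carbon pairs between sugar phosphates, had the most reads of the 10. Its level was 2310 and 1479 CPM in wild type and 2645 and 3024 CPM in PPD3_OE, a log2 fold change of 0.58 ± 0.30 (95% interval -0.21 to 1.37). RPE (AT5G61410), the plastid ribulose-phosphate epimerase, was at 535 and 341 CPM in wild type and at 602 CPM in both PPD3_OE plants, a log2 fold change of 0.46 ± 0.26. The RPE levels of the PPD3_OE plants had an SD of 0.371 CPM, against 137 CPM in wild type, but counting error alone is 3.88 and 4.19 CPM for them. PRK (AT1G32060), the phosphoribulokinase that makes ribulose-1,5-bisphosphate with ATP, was at 1449 and 902 CPM in wild type and at 1364 and 1509 CPM in PPD3_OE. Here the groups overlapped, with wild-type plant 1 between the PPD3_OE plants, and the log2 fold change was 0.29 ± 0.29 (edgeR adjusted p = 0.512). Without wild-type plant 2 it was -0.03.

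CP12-2 (AT3G62410), an intronless gene for the linker protein of the GAPDH and phosphoribulokinase complex, was the gene with the smallest difference between the genotypes. It was at 571 and 343 CPM in wild type and at 455 and 472 CPM in PPD3_OE. Both PPD3_OE plants lay between the wild-type plants, and the log2 fold change was 0.02 ± 0.28 (95% interval -0.73 to 0.77, edgeR adjusted p = 0.966). Its sign turned with the setting, to -0.02 when counts were scaled by library size alone and to -0.32 without wild-type plant 2. CP12-1, the other abundant CP12 transcript, was level at 598 and 557 CPM in wild type and at 566 and 596 CPM in PPD3_OE (log2 fold change 0.01 ± 0.14). CP12-3, a much lower transcript, was at 11.7 and 13.2 CPM in wild type and at 6.74 and 4.43 CPM in PPD3_OE. DESeq2 called CP12-3 lower (adjusted p = 0.00325) and edgeR did not (adjusted p = 0.0745).

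A ratio of counts within a plant does not depend on depth or scaling, and on that measure the wild-type plants were nearly alike. CP12-2 counts were 0.351 and 0.342 of GAPB counts in wild type, and 0.240 and 0.233 in PPD3_OE. The genotypes differed by -0.55 on the log2 scale, with an SD of 0.027 within each genotype. CP12-2 over PRK was 0.394 and 0.381 in wild type and 0.334 and 0.313 in PPD3_OE, 16.5% lower by the log mean. The summed A subunit counts were 1.87 and 1.96 times those of GAPB in wild type and 1.80 and 1.82 times in PPD3_OE, a difference of -0.08 on the log2 scale. In these 3 ratios the genotypes did not overlap. How often ratios of other genes do so was not counted. In the levels of single genes, 33.9% of all genes lay above and 33% below without overlap. With 2 plants against 2, an exact two-sided permutation test cannot go below 0.33, which each of the 3 reached (adjusted p = 0.33 over the 3). The ratio of GAPA2 to GAPA1, looked at after its values were seen, was 0.508 and 0.494 in wild type and 0.577 and 0.726 in PPD3_OE.

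**Figure D2:**
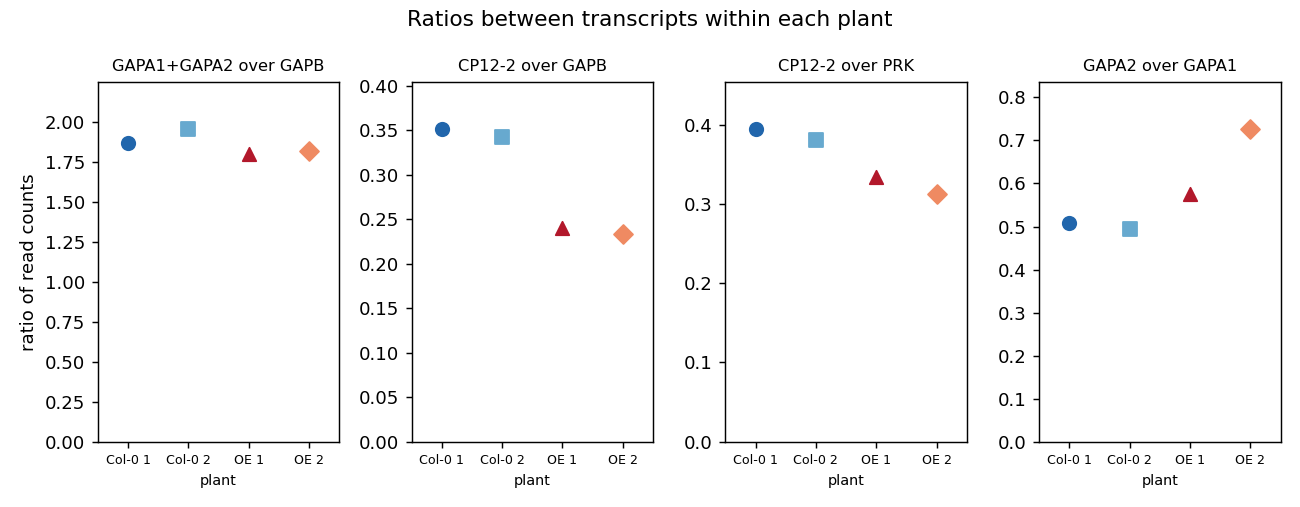
Ratio of read counts (axes from 0) of the A subunit transcripts to GAPB, CP12-2 to GAPB, CP12-2 to PRK and GAPA2 to GAPA1 in each of the 4 plants. The ratio of CP12-2 to GAPB was 0.346 ± 0.007 in wild type and 0.236 ± 0.004 in PPD3_OE (SD, n = 2).

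The same comparison for all 10 genes set each transcript against the mean of the 10 in its own plant. The shifts of the 10 cancel out by construction, so a fall in any gene raises the values of the others. On this scale the wild-type plants differed by at most 0.16 (PGK1) and the PPD3_OE plants by at most 0.20 (GAPA2), in log2 units. CP12-2 had the largest shift between genotypes, from -0.94 and -1.01 in wild type to -1.38 and -1.43 in PPD3_OE. GAPA2 shifted the other way, from -0.10 and -0.09 to 0.08 and 0.28. PRK went from 0.40 and 0.38 to 0.20 and 0.24. PGK1, HCEF1 and RPE kept their place in the set, with differences of 0.01 or less between the genotype means. GAPB, SBPASE and TKL1 stood higher by 0.12 to 0.14, and GAPA1 stood lower by 0.09, with PPD3_OE plant 1 and wild-type plant 1 level at 0.88.

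**Figure D3:**
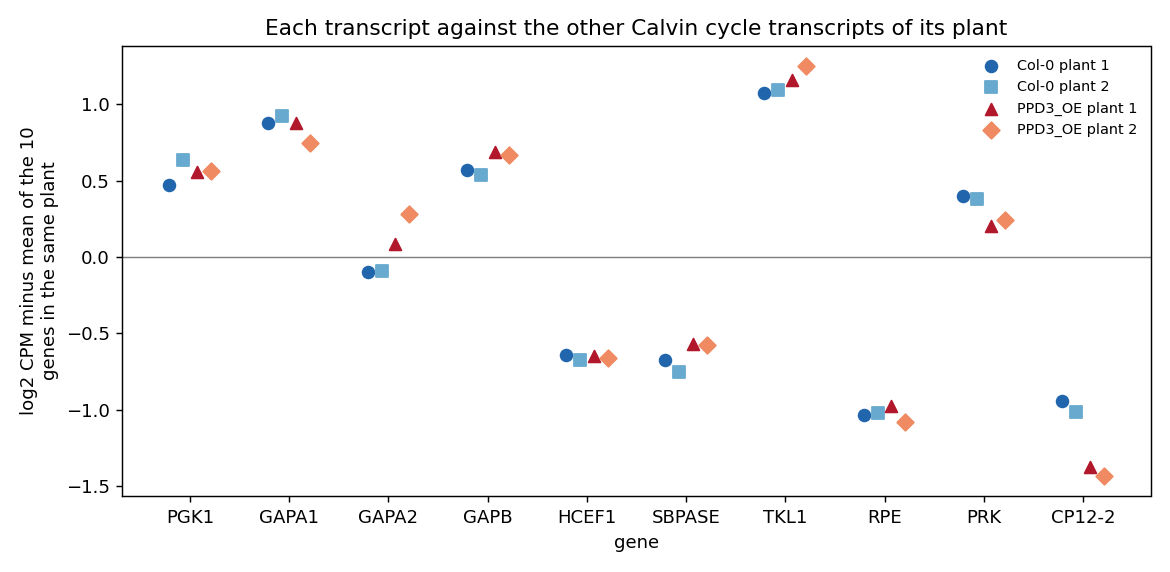
Log2 CPM of each transcript minus the mean log2 CPM of the 10 transcripts in the same plant, for 4 plants. The 2 wild-type plants lie within 0.08 of each other except in PGK1 (0.16), and CP12-2 is the gene with the widest gap between genotypes (a difference of -0.43).

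The distance between the wild-type plants was large and shared by every gene. Wild-type plant 1 stood above plant 2 in all 10, by 0.50 to 0.74 on the log2 scale with a median of 0.67. Over all genes tested the median of this difference was 0.00, and 6.96% of genes had a difference as large as the smallest of the 10. The PPD3_OE plants differed by a median of -0.10, and their gap was narrower than the wild-type gap in every one of the 10, as it was in 45.6% of all genes. The mean of the PPD3_OE plants was 1.35 to 2.16-fold that of wild-type plant 2, and 0.812 to 1.37-fold that of wild-type plant 1, with 8 of 10 genes above it. Summed over the 10, levels were 12438 and 7955 CPM in wild type and 13691 and 14856 CPM in PPD3_OE, a log2 difference of 0.52 (exact two-sided permutation p = 0.33, the smallest that 2 against 2 plants can give). Without wild-type plant 2 this difference was 0.18, and without wild-type plant 1 it was 0.81. The summed senescence and dark-induced markers were at 254 CPM in wild-type plant 1 and 512 in plant 2. Of the 6 tested, 4 were higher in plant 2 (ORE1, NAP, SEN1 and ASN1), SAG13 was higher in plant 1 and SGR1 was level, and the part of these in the distance between the plants was not tested.

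By edgeR at an adjusted p of 0.05, 0 of the 10 genes were called in either direction. Of 19919 genes 0% were called higher and 0.00502% (1 gene) lower, so a count of 0 was all but fixed. At an unadjusted p under 0.05 again 0 of the 10 were past the line, while 16.1% of all genes were on the higher side and 17% on the lower. DESeq2 called 0 of the 10, against 8.35% of genes called higher and 9.65% lower. Adjusted p-values of the 10 ran from 0.164 to 0.966 in edgeR and from 0.0589 to 0.982 in DESeq2. All 10 log2 fold changes were positive in edgeR (0.02 to 0.74), with a median of 0.47 against 0.01 over all genes tested. The 8 of 10 genes with both PPD3_OE plants above both wild-type plants compare with 33.9% of all genes, and 33% lay below in the same way. Since the 10 vary together between plants, they are not 10 independent observations. When wild-type plant 1 was left out, the median log2 fold change of the 10 was 0.80 in edgeR and 0.82 in DESeq2. Without wild-type plant 2 it was 0.19 and 0.21. In such a fit the other wild-type plant stands alone and is assumed to vary like the PPD3_OE plants, which lie close together. Calls from these fits are therefore not given.

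**Figure D4:**
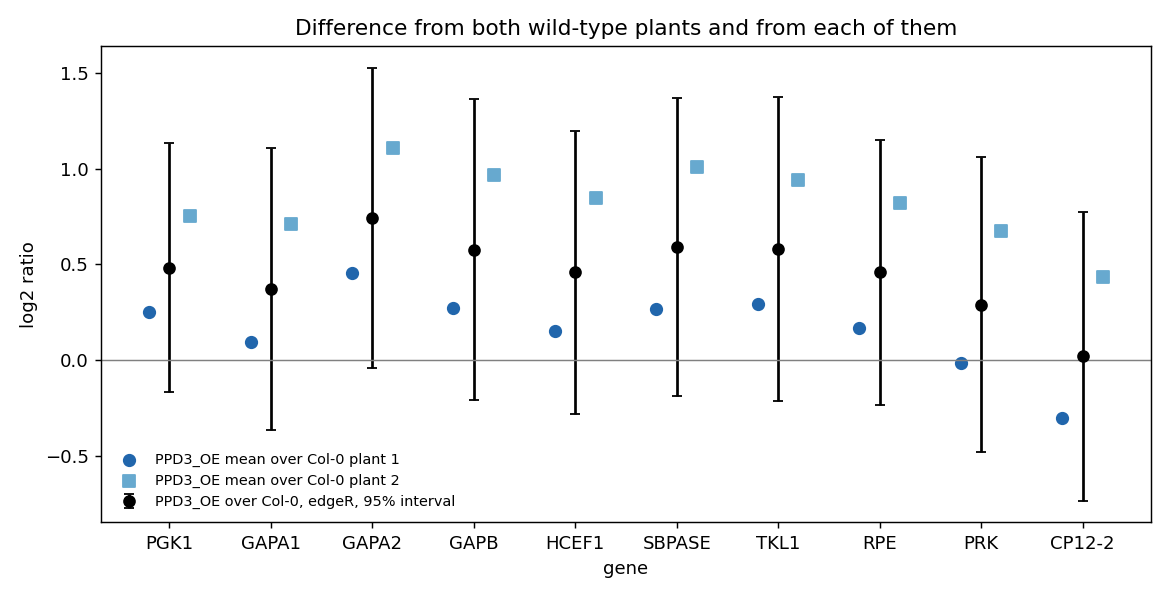
Log2 ratio of PPD3_OE to wild type for each transcript, with edgeR's estimate and its 95% interval in black and the PPD3_OE mean set against each wild-type plant alone in blue. Every interval includes 0, and the ratio to wild-type plant 2 exceeds that to wild-type plant 1 for all 10 genes.

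Per kilobase of annotated exon, GAPA1 was the highest of the 10 in every plant and RPE the lowest. In wild type GAPA1 was at 950 ± 282 CPM per kb and RPE at 288 ± 90.1, and in PPD3_OE they were at 1229 ± 15.6 and 396 ± 0.244. GAPA1 was followed in wild type by CP12-2 (718 ± 253), PGK1 (713 ± 173), GAPB (710 ± 237), PRK (622 ± 205), TKL1 (593 ± 184) and GAPA2 (518 ± 163). The gaps between these neighbours were smaller than the SD, but that SD is mostly the distance between the wild-type plants, which all genes share. Within each wild-type plant PRK stood above TKL1 and TKL1 above GAPA2, while CP12-2, PGK1 and GAPB took different orders. HCEF1 (344 ± 114) and SBPASE (314 ± 111) came next. CP12-2 was the 2nd highest per kilobase in wild-type plant 1, the 4th in wild-type plant 2 and the 7th in both PPD3_OE plants, at 728 ± 18.6 CPM per kb. GAPA2 was the 7th in both wild-type plants, and the 5th and 4th in PPD3_OE plants 1 and 2.

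The rest of the cycle, a list of 15 genes for Rubisco small subunits, its activase, aldolases, isomerases and isoforms, gave a positive fold change in 12, and its median on the log2 scale was 0.57. In 9 of the 15 both PPD3_OE plants were above both wild-type plants (33.9% of all genes). EdgeR called 0 of the 15, and DESeq2 called 5 higher and 1 lower (8.35% and 9.65% of all genes). In TIM, the plastid triose-phosphate isomerase, the wild-type plants lay close together, at 314 and 278 CPM, below 433 and 486 CPM in PPD3_OE (log2 fold change 0.63 ± 0.15, DESeq2 adjusted p = 0.00329). RBCS2B, a small subunit of Rubisco with close tandem copies that may share its reads, was at 1203 and 682 CPM in wild type and at 2496 and 2962 CPM in PPD3_OE. TKL2, the minor transketolase, was at 27.3 and 37.9 CPM in wild type and at 26.2 and 28.1 in PPD3_OE. Against wild-type plant 1 alone, the PPD3_OE mean was higher by a median of 0.32 over the 15, and by 0.21 over the 10.

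Thioredoxins and their reductases, which activate the cycle in the light, had positive values in 8 of 10 genes and a median of 0.33. Neither tool called any of them, where edgeR called 1 of all genes and DESeq2 8.35% higher and 9.65% lower. In edgeR 0 of 10 were at an unadjusted p under 0.05, against 16.1% of all genes higher and 17% lower. NTRC, a reductase with its own thioredoxin domain, was at 172 and 115 CPM in wild type and at 204 and 229 CPM in PPD3_OE. TRXF1, an f-type thioredoxin that acts on the bisphosphatases, was at 260 and 189 CPM in wild type and at 293 and 295 CPM in PPD3_OE. Its sister TRXF2 was at 74.5 and 68.7 CPM in wild type and at 63.9 and 63.5 CPM in PPD3_OE, and the m-type TRXM3 at 20.7 and 22.0 CPM and at 18.2 and 15.3 CPM. In these 2 genes both PPD3_OE plants were below both wild-type plants (33% of all genes). In 6 of the 10 they were above both (33.9% of all genes). Wild-type plant 1 stood above plant 2 in 9 of the 10.

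Isoforms of the same enzymes outside the cycle, 10 in number and mostly of the cytosolic sugar pathways, had a median difference between the wild-type plants of 0.01 on the log2 scale, against 0.67 for the Calvin cycle genes, with a range from -0.13 to 0.87. The 0.87 belongs to FBP, the cytosolic fructose-1,6-bisphosphatase, at 340 and 186 CPM in wild type and 316 and 347 CPM in PPD3_OE, a wider gap between wild-type plants than in any of the 10 genes. 7 of 10 had positive fold changes, with a median of 0.32. DESeq2 called 1 of these isoforms higher and 1 lower, near the shares of all genes (8.35% and 9.65%). The higher was PGK3, the cytosolic phosphoglycerate kinase, at 209 and 185 CPM in wild type and at 254 and 303 CPM in PPD3_OE (DESeq2 adjusted p = 0.0488). The lower was a cytosolic ribulose-phosphate epimerase, AT3G01850, at 35.7 and 39.0 CPM in wild type and at 24.7 and 24.3 CPM in PPD3_OE (log2 fold change -0.61 ± 0.10, DESeq2 adjusted p = 0.00441). How reads were divided between it and its paralog AT1G63290 was not tested. The plastid RPE of the cycle stood on the other side, at 0.46 ± 0.26. GAPCP1, a glycolytic GAPDH of plastids, was at 22.2 and 21.2 CPM in wild type and at 27.4 and 30.2 CPM in PPD3_OE. ALDH11A3, a non-phosphorylating GAPDH, was at 206 and 223 CPM in wild type and at 191 and 180 CPM in PPD3_OE. The difference between these lists and the 10 genes was not tested.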

How the data were processed

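RNA of 4 single plants was sequenced as 150-base reads after TruSeq preparation, which does not mark strand, per the labels' protocols. The deposited values are raw read counts per locus, and the submitters' processing notes name TAIR10 and DESeq2. No aligner, counter or annotation is given in the sources used here. Rows that name no gene were left out. Of all counted reads, 3.67% to 4.18% were ambiguous, 4.18% to 5.61% not unique and 0.713% to 0.941% without a feature.

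The test was that of edgeR 4.0.16, run under R 4.3.3 (default filter with a minimum count of 10, TMM scaling, quasi-likelihood F test of genotype, Benjamini-Hochberg adjustment over 19919 genes, 2 residual and 2.36 prior degrees of freedom). A call is an adjusted p under 0.05. DESeq2 1.42.0 and limma 3.58.1 (voom) were alternatives. Code was tested on simulated data. Differences between single plants over gene lists use log2 CPM with a prior count of 2. Nothing says that the plants came from separate sowings, so p-values measure the spread between these plants.

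The genes and lists were chosen with earlier results of these data known. The rule for naming genes covered the 10 genes, PPD3 and, from each other pathway list, the 2 genes with the smallest p in each direction. CP12-1, FBP and single markers such as LHCB1.3 were named outside that rule, after their values were seen. Marker lists are otherwise given as sums and counts. Lengths, overlaps and sequences came from RefSeq TAIR10.1, where all 10 loci matched.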

Additional observations from a re-analysis of the deposited data

How the results depend on the processing

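The count of Calvin cycle genes called higher was 0 of 10 under other scalings, filters, an adjusted p of 0.10 (where 1904 of all genes were higher) and limma voom. Under the other scalings, the filter of 5 CPM and voom, 0 of all genes were called higher, and 3 were without a filter. A count of 0 among the 10 was therefore all but fixed in those runs. With a plant left out 1 genotype has a single plant, and calls are not given. The count called lower was 0 in every run with all plants kept. The median log2 fold change of the 10 ran from 0.43 to 0.50 under other scalings, filters and tools, and from 0.19 to 0.82 with plants left out, lowest without wild-type plant 2. The summed log2 difference ran from 0.18 to 0.81 with plants left out. CP12-2 changed sign to -0.018 with library size scaling, -0.002 without a filter, -0.001 with a filter of 5 CPM, -0.004 (edgeR) and -0.005 (DESeq2) without PPD3_OE plant 2, and -0.32 (edgeR) and -0.30 (DESeq2) without wild-type plant 2. PRK changed sign to -0.03 and -0.014 in the last pair. With plants left out in edgeR, CP12-2 ran from -0.32 to 0.41 and PRK from -0.03 to 0.64, both highest without wild-type plant 1. The other 8 genes were positive in all 17 alternatives. The ratio of CP12-2 to GAPB ran from -0.57 to -0.53 with plants left out, and that of CP12-2 to PRK from -0.31 to -0.21.

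The labels number the plants 1 and 2 in both genotypes without saying that a number pairs them. Across genes the differences between plants 1 and 2 of the genotypes correlated at -0.30. With the replicate block the median was 0.50 and 0 of the 10 genes were called, in a fit that called 0 of all genes higher. A crossed replicate block, added after the data were seen, called 17 genes higher, 0 of them among the 10. Voom and the DESeq2 runs with a plant left out were also added then. Counting error was small beside the distance between the wild-type plants for all 10 genes.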
